A study of Homo sapiens with 12 samples.

Results

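Caspases, the BCL2 family and the inhibitors of apoptosis form the machinery of programmed cell death. In the mitochondrial route, BH3-only proteins such as BAD, BID and PMAIP1 bind and block pro-survival proteins such as BCL2 and MCL1, and the pore formers BAX and BAK1 then open the outer mitochondrial membrane. The released proteins lead APAF1 to assemble the apoptosome, on which the initiator caspase CASP9 is activated, and CASP9 in turn cleaves executioner caspases. Inhibitor of apoptosis proteins (IAPs) such as XIAP bind and restrain caspases, and inflammatory caspases such as CASP1 and CASP4 act in a lytic form of death that responds to infection.

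The genes described here were taken by symbol from the gene-level count files, as caspases, BCL2 relatives, IAPs and their named partners. They number 41 of 45320 genes. Of these, 33 passed a filter on low counts and were tested. The other 8, CASP5, CASP12, CASP14, BCL2L10, BCL2L14, BCL2L15, BMF and BIRC7, had at most 20 counts in any library, and CASP12 had 0 in all 12.

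RNA was sequenced from Ishikawa cells, an endometrial cancer line, that carried a short hairpin against ARID1A (shARID1A) or a control hairpin (shNC). ARID1A is a subunit of SWI/SNF, a complex that moves nucleosomes along DNA. Both arms grew in medium with little steroid hormone and received vehicle (DMSO), estradiol (17-beta-estradiol, E2, at 10 nM) or the same dose of E2 together with fulvestrant, which blocks and degrades the estrogen receptor, for 8 h. The last treatment is called fulvestrant below. Fulvestrant was at 100 nM, as its dose was read from a label typed partly with letters. There were 2 libraries in each of the 6 groups, so 6 in each arm. Whether these were separate cultures, and whether an arm is 1 hairpin or 1 clone, is not given in the labels. The p-values measure only the spread between these libraries, possibly a technical one, and the loss of ARID1A and any other difference between the lines cannot be told apart.

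Library totals ran from 28810351 to 38657162 counts. ARID1A itself stood at 53.7 to 61.6 CPM, reads scaled to equal library totals, in the 6 shARID1A libraries and 109.9 to 123 CPM in the 6 shNC libraries. On the log2 scale it fell by 1.03 (SE 0.04) over the 3 treatments (adjusted p = 3.02e-19 by edgeR's quasi-likelihood test over all genes). ESR1, the gene for the estrogen receptor that E2 and fulvestrant bind, had 2 to 34 counts per library. Of the epithelial markers, KRT8 and KRT18 carried nearly the whole sum, EPCAM was at most 63 counts, and KRT19, CDH1 and CLDN4, which also mark epithelia, were at most 21 counts. The summed level of the 6 epithelial markers was 537 to 574 CPM in shARID1A and 852 to 930.0 CPM in shNC. The 6 stromal markers summed to 50.0 to 53.2 CPM in shARID1A and 32.2 to 43.9 CPM in shNC, mostly COL1A1, with THY1 at 0 throughout. Of the 3 stromal markers tested, COL1A1 was called higher at 0.60 on the log2 scale, and PDGFRB and DCN lower at -0.55 and -2.91. Immune markers summed to at most 0.775 CPM and endothelial markers to at most 0.282 CPM, and CD3E, KDR and EMCN were at 0 in all libraries. All 12 tested proliferation genes were called lower in shARID1A, and their sum was 1573 to 1629 CPM against 1840.1 to 1947 CPM in shNC. The part of these shifts in the results below was not tested. In bulk RNA, fewer cells that express a gene and less RNA per cell cannot be told apart.

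CASP9 was the apoptosis gene that stood furthest apart between the arms. Its RNA was about 4.25-fold more abundant in shARID1A cells than in shNC cells, and the difference had nearly the same size in each of the 3 treatments. CASP4, an inflammatory caspase that senses bacterial lipopolysaccharide in the cytosol, was the clearest gene in the other direction. BCL2 and BAD were higher in shARID1A cells, and MCL1, PMAIP1 and 4 of the 5 tested IAP genes were lower. A gene is called here when its adjusted p is under 0.05, and, averaged over treatments, 43.1% of all 17020 tested genes were called, 20.3% higher and 22.8% lower. Counts of called apoptosis genes are to be read beside these shares.

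CASP9 lies on chr1:15817327-15853029 (hg19), on the minus strand. With DMSO it had 143 and 138 CPM in shARID1A, against 35.9 and 31.6 CPM in shNC. With E2 it had 137 and 143 CPM in shARID1A, against 34.6 and 32.4 CPM in shNC. With E2 and fulvestrant it had 146 and 132 CPM in shARID1A, against 29.6 and 33.6 CPM in shNC. The lowest shARID1A library stood far above the highest shNC library, and no treatment stood apart within an arm. The fitted log2 fold change was 2.06, 2.06 and 2.14 in the 3 treatments, each with an SE of 0.08. The adjusted p was 2.35e-18 with DMSO, 2.13e-18 with E2 and 1.74e-18 with fulvestrant. Averaged over treatments it was 2.09 (SE 0.05, adjusted p = 1.95e-25). Its mean level was 139.9 ± 5.08 CPM in shARID1A and 32.9 ± 2.23 CPM in shNC (SD, n = 6 each). On these 12 levels an exact two-sided permutation test gave p = 0.00216, the smallest that 6 against 6 allows, for a gene that was singled out with earlier results of these data known. By size of increase CASP9 ranked 38 among 17020 tested genes and 3 among the 8866 that averaged 10 CPM or more. Only 1.99% of its exon bases are shared with another gene, CELA2B, which had at most 11 counts.

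**Figure D1:**
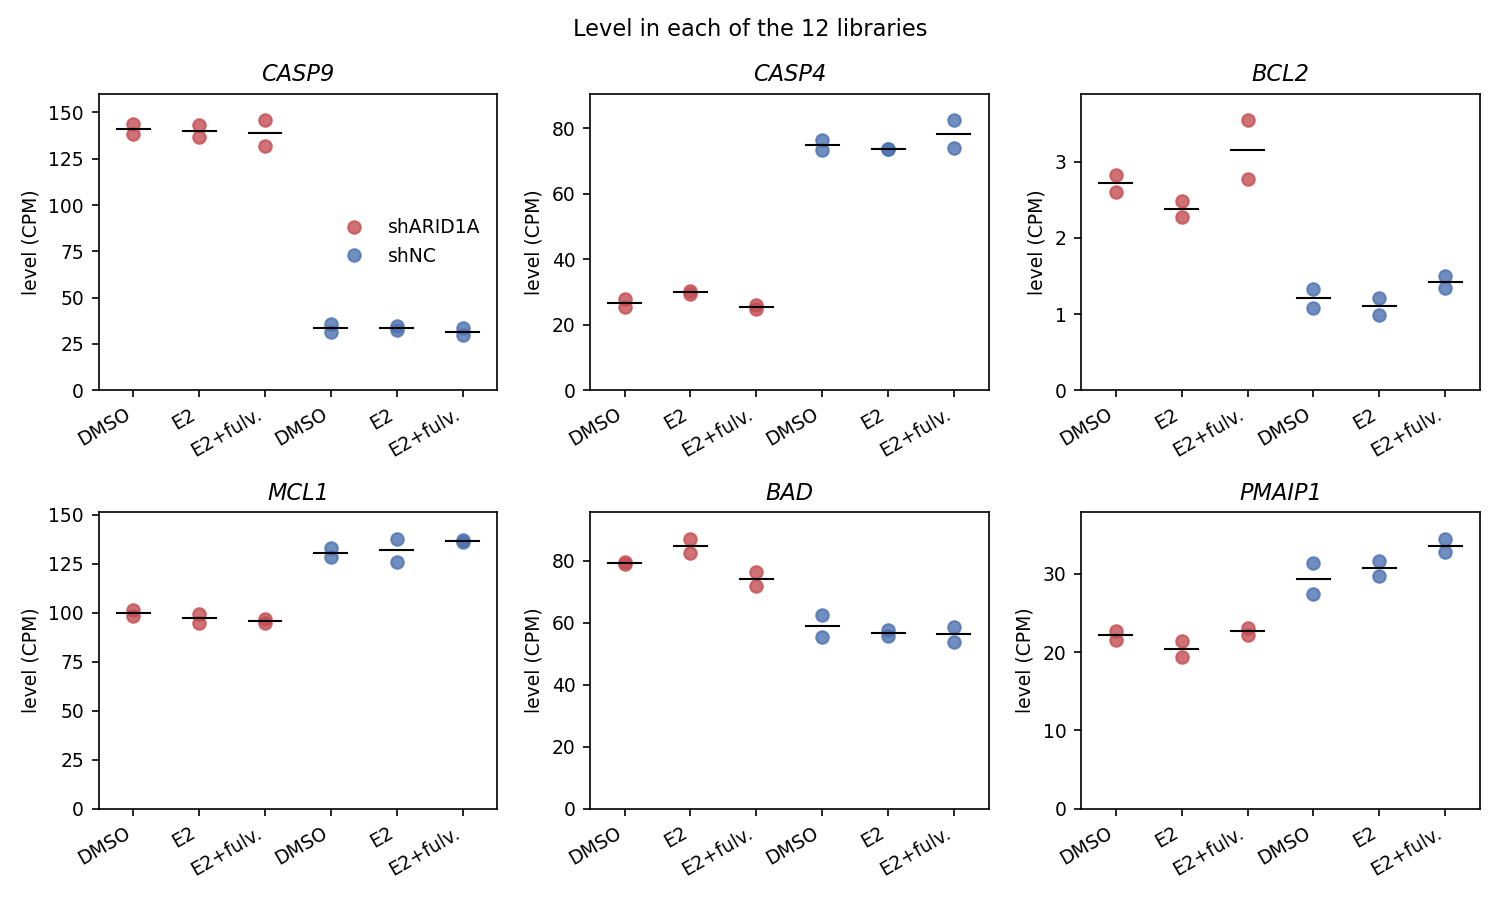
Level in CPM (vertical axis, linear) of CASP9, CASP4, BCL2, MCL1, BAD and PMAIP1 in each library (points), by treatment and arm, with shARID1A in red and shNC in blue and a line at the mean of the 2 libraries of a group. CASP9 sits at 132 CPM or above in all 6 shARID1A libraries and at 35.9 CPM or below in all 6 shNC libraries, while CASP4 is arranged the other way round.

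RefSeq's promoter table (GRCh38.p14) holds the 250 bases before the start for 57 start sites of 32 of the 41 genes. CASP9 has 2 such windows, both on the minus strand, at chr1:15524216-15524465 and chr1:15524791-15525040. CASP4 has 1, on the minus strand at chr11:104968575-104968824. They are shown because these are the genes that moved furthest in either direction. Capitals mark the letters GGGCGG, the core of the GC box, on either strand, with overlapping matches counted.

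CASP9 first window: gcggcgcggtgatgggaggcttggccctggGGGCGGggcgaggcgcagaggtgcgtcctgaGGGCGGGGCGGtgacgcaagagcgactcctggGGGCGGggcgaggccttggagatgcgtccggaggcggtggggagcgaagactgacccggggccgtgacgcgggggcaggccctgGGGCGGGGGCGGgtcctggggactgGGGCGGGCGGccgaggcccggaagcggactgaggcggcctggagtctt
CASP9 second window: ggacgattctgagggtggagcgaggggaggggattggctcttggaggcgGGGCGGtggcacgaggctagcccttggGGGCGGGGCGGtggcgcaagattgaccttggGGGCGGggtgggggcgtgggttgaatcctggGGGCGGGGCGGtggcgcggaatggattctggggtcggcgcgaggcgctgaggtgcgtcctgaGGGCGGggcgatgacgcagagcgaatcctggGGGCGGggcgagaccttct
CASP4 window: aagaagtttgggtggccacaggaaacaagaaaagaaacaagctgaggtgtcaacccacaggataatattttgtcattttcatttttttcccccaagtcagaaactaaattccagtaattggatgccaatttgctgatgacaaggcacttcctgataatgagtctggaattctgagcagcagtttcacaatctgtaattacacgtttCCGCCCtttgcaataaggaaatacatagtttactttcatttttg

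Each CASP9 window holds 8 matches to GGGCGG, a number that only 0.584% of the 35116 windows of all genes reach. At least 1 match was present in 42.6% of windows. The CASP4 window holds 1, and its GC content is 38.0%, against 77.6% and 71.6% in the CASP9 windows. The AP-1 letters TGANTCA, present in 6.57% of windows, were in none of the 3. The letters CCAAT, counted on both strands and present in 32.0% of windows, had 2 matches in the CASP4 window and 1 in the second CASP9 window. These are matches of letters in RefSeq sequence and were not measured in the cells.

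Among the other initiator caspases, which start a cascade when brought together on a platform, CASP8 of the death receptor route averaged 22.7 ± 1.65 CPM in shARID1A and 25.7 ± 2.41 CPM in shNC (SD, n = 6 each). Its averaged log2 fold change was -0.18 (SE 0.06, adjusted p = 0.0215), and the arms overlapped. That call was lost on leaving out any 1 of 6 libraries, the second shARID1A library of each treatment, the second shNC library with DMSO, and the first shNC libraries with E2 and with fulvestrant (adjusted p between 0.0512 and 0.127). CASP2, which responds to DNA damage, averaged 71.7 ± 2.53 CPM in shARID1A and 73.4 ± 4.92 CPM in shNC, and CASP10, a close relative of CASP8, 3.72 ± 0.536 CPM in shARID1A and 4.40 ± 0.483 CPM in shNC. Neither passed the test (adjusted p = 0.597 and 0.129). The executioner caspase CASP6 did not pass either (adjusted p = 0.123). It averaged 13.7 ± 1.03 CPM in shARID1A and 12.3 ± 0.701 CPM in shNC. APAF1, the scaffold on which CASP9 is activated, had 33.9 to 39.0 CPM in shARID1A, median 34.4 CPM, and 35.5 to 44.7 CPM in shNC, median 39.9 CPM. The ranges overlapped and the averaged log2 fold change was -0.20 (SE 0.05, adjusted p = 0.00228).

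CASP4 lies on chr11:104813593-104839366 (hg19), on the minus strand. With DMSO it had 25.6 and 27.7 CPM in shARID1A, against 76.5 and 73.3 CPM in shNC. With E2 it had 29.4 and 30.4 CPM in shARID1A, against 73.5 and 73.7 CPM in shNC. With E2 and fulvestrant it had 26.0 and 24.7 CPM in shARID1A, against 73.9 and 82.4 CPM in shNC. All shARID1A libraries lay far below all shNC libraries. With DMSO the log2 fold change was -1.49 (SE 0.09), with E2 -1.30 (SE 0.08) and with fulvestrant -1.63 (SE 0.09). The largest of the 3 adjusted p-values was 1.5e-13. Averaged over treatments CASP4 fell by 1.47 on the log2 scale (SE 0.05, adjusted p = 2.61e-21). By size of decrease it ranked 322 among 17020 tested genes and 22 among the 8866 at 10 CPM or more. CASP1, the inflammasome caspase, had only 6 to 32 counts per library. It averaged 0.397 ± 0.140 CPM in shARID1A and 0.760 ± 0.205 CPM in shNC, and its averaged log2 fold change was -0.97 (SE 0.33, adjusted p = 0.0172). Leaving out the second shARID1A library with DMSO or E2, the first shARID1A or shNC library with fulvestrant, or the first shNC library with DMSO lost the call (adjusted p between 0.05004 and 0.101). CASP4 and CASP1 are neighbours on chromosome 11, with CASP5 and CASP12, which had at most 1 count, beside them.

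**Figure D2:**
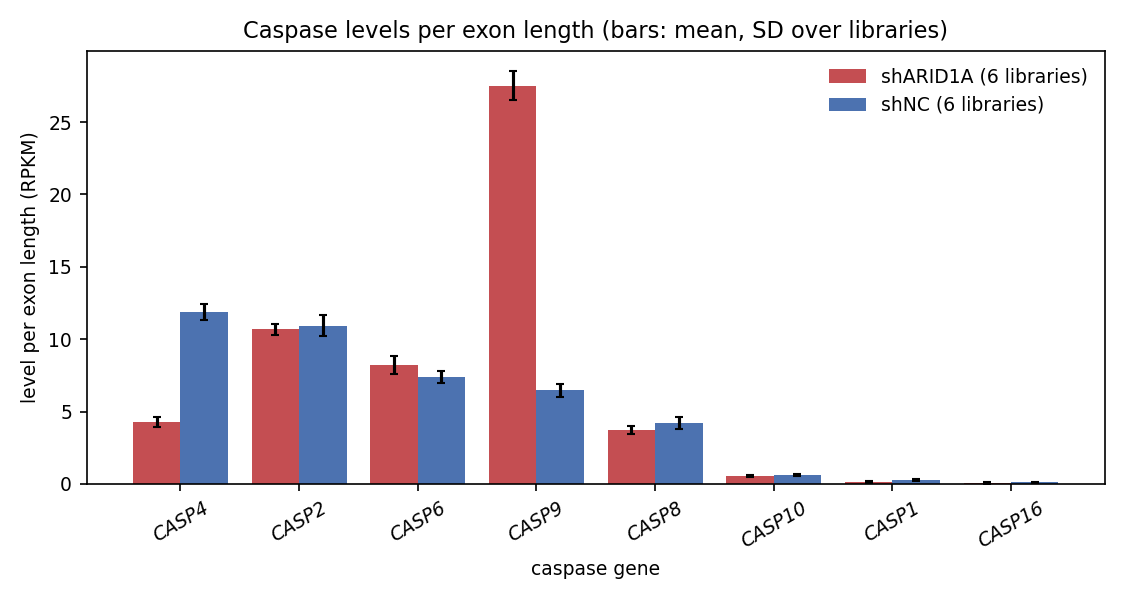
Level per exon length (RPKM, vertical axis, linear) of 8 tested caspase genes, ordered by their level in shNC, with the mean and SD over 6 libraries for shARID1A (red) and shNC (blue). CASP9 is at 27.5 RPKM in shARID1A and 6.48 RPKM in shNC, and CASP4 at 4.29 RPKM in shARID1A and 11.9 RPKM in shNC, while CASP2 and CASP6 are close in both arms.

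Levels of different genes were compared only after division by exon length, as RPKM, which is CPM per kilobase of exon. In shARID1A, CASP9 stood at 27.5 ± 0.999 RPKM, CASP2 at 10.7 ± 0.377 RPKM and CASP6 at 8.24 ± 0.617 RPKM, and none of these ranges overlapped. In shNC, CASP4 stood at 11.9 ± 0.556 RPKM and CASP2 at 10.9 ± 0.733 RPKM, and CASP9, at 6.48 ± 0.438 RPKM, was below CASP6, at 7.40 ± 0.422 RPKM. The ranges of CASP4 and CASP2, and of CASP6 and CASP9, overlapped in shNC. CASP9 thus made up 39.8 ± 1.19% of the summed caspase RPKM in shARID1A and 11.6 ± 0.867% in shNC (SD, n = 6 each). CASP4 made up 6.21 ± 0.477% in shARID1A and 21.3 ± 0.972% in shNC. The summed caspase level was 69.1 ± 0.992 RPKM in shARID1A and 55.8 ± 1.61 RPKM in shNC. Without CASP9 it was 41.6 ± 0.878 RPKM in shARID1A and 49.3 ± 1.68 RPKM in shNC. The ratio of CASP9 to APAF1 in RPKM was 6.09 ± 0.482 in shARID1A and 1.25 ± 0.159 in shNC.

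The pro-survival genes did not move together. BCL2, the founding member of the family, had 2.61 and 2.83 CPM with DMSO, 2.49 and 2.27 CPM with E2, and 2.78 and 3.54 CPM with fulvestrant in shARID1A. In shNC it had 1.33 and 1.08 CPM with DMSO, 0.989 and 1.22 CPM with E2, and 1.50 and 1.35 CPM with fulvestrant. It thus had few counts, 31 to 105 per library, over only 572 exon bases in the files, and its arms did not overlap. Per exon length it stood at 4.81 ± 0.763 RPKM in shARID1A and 2.18 ± 0.331 RPKM in shNC (SD, n = 6 each). Its averaged log2 fold change was 1.13 (SE 0.18, adjusted p = 3.17e-06).

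MCL1, a short-lived protein that binds BAK1 and several BH3-only proteins, was the gene with the highest level per length in both arms, at 88.8 ± 2.37 RPKM in shARID1A and 121.0 ± 4.43 RPKM in shNC. It had 101 and 98.3 CPM with DMSO, 99.3 and 94.9 CPM with E2, and 94.7 and 97.0 CPM with fulvestrant in shARID1A. In shNC it had 128 and 133 CPM, 126 and 138 CPM, and 137 and 136 CPM in the same treatments. No shARID1A library reached the lowest shNC library. MCL1 fell by 0.45 on the log2 scale (SE 0.04, adjusted p = 1.87e-11). BCL2L2, the third tested pro-survival gene, averaged 4.66 ± 0.676 CPM in shARID1A and 4.40 ± 0.631 CPM in shNC (adjusted p = 0.683), but 47.3% of its exon bases are shared with the read-through gene BCL2L2-PABPN1, so its value is uncertain. The ratio of BCL2 to MCL1 in RPKM was 0.0542 ± 0.00882 in shARID1A and 0.0180 ± 0.00244 in shNC (SD, n = 6 each).

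Of the pore formers, BAK1 had 37.4 to 44.3 CPM in shARID1A, median 40.9 CPM, and 32.7 to 38.4 CPM in shNC, median 35.5 CPM. The ranges overlapped at their edges, and BAK1 rose by 0.21 on the log2 scale over the treatments (SE 0.05, adjusted p = 0.00176). It was called in no single treatment (adjusted p = 0.212 with DMSO, 0.0697 with E2 and 0.0692 with fulvestrant). BAX averaged 33.8 ± 1.67 CPM in shARID1A and 34.9 ± 2.03 CPM in shNC, its log2 fold change being -0.05 (SE 0.05, adjusted p = 0.526).

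BH3-only proteins start the mitochondrial route by neutralising pro-survival proteins or by activating pore formers. Averaged over treatments, their genes were called lower in 5 of 6 tested cases and higher in 1, BAD. Of all tested genes, 22.8% were called lower and 20.3% higher. Among genes averaging 10 CPM or more, 60.2% were called either way. Of the 5, only PMAIP1 was called in all 3 treatments. BID and HRK were called with DMSO only, and BCL2L11 and BBC3 in no single treatment. BAD, which binds BCL2 and its closest relatives, had 78.9 and 79.6 CPM with DMSO, 82.5 and 87.0 CPM with E2, and 71.9 and 76.5 CPM with fulvestrant in shARID1A. In shNC it had 62.4 and 55.2 CPM, 57.6 and 55.8 CPM, and 58.7 and 53.8 CPM in the same treatments. The arms did not overlap. BAD rose by 0.47 on the log2 scale (SE 0.04, adjusted p = 2.54e-10). It shares 22.7% of its exon bases with GPR137 on the other strand, which rose by 0.20 (SE 0.04, adjusted p = 0.000241), and the counts were made without strand, so reads of the shared stretch cannot be told apart.

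PMAIP1, the stress-induced BH3-only protein NOXA that targets MCL1, had 21.6 and 22.7 CPM with DMSO, 21.5 and 19.4 CPM with E2, and 22.2 and 23.1 CPM with fulvestrant in shARID1A. In shNC it had 31.3 and 27.4 CPM, 29.8 and 31.6 CPM, and 32.7 and 34.4 CPM. The arms again did not overlap, and PMAIP1 fell by 0.52 on the log2 scale (SE 0.06, adjusted p = 9.95e-09). BID, which links CASP8 to mitochondria once it is cut, had 29.7 to 37.2 CPM in shARID1A, median 33.7 CPM, and 37.6 to 43.1 CPM in shNC, median 41.0 CPM. The lowest shNC library lay just above the highest shARID1A library, and the averaged log2 fold change was -0.27 (SE 0.06, adjusted p = 0.000139). It was -0.41 with DMSO (adjusted p = 0.00245), a call lost without the first shARID1A library (adjusted p = 0.0971), and -0.20 with E2 and -0.21 with fulvestrant, neither called (adjusted p = 0.115 and 0.114).

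HRK, a BH3-only gene best known from neurons, was low, at 35 to 112 counts per library. It had 1.82 and 1.42 CPM with DMSO, 2.04 and 1.68 CPM with E2, and 2.16 and 1.18 CPM with fulvestrant in shARID1A. In shNC it had 3.40 and 3.20 CPM, 2.68 and 2.06 CPM, and 2.69 and 2.82 CPM. The arms overlapped in 1 library each, and HRK fell by 0.70 on the log2 scale over the treatments (SE 0.17, adjusted p = 0.00125). It stood at -1.03 with DMSO (adjusted p = 0.0116), and at -0.35 with E2 and -0.72 with fulvestrant, neither called (adjusted p = 0.421 and 0.0854). The call with DMSO was lost without the second shARID1A or first shNC library (adjusted p = 0.124 and 0.0686), and HRK was called with fulvestrant without the first shARID1A library (adjusted p = 0.0406). BCL2L11, the BH3-only protein BIM, fell by 0.27 (SE 0.08, adjusted p = 0.0085), with 10.0 ± 0.528 CPM in shARID1A and 12.1 ± 1.13 CPM in shNC. BBC3, the p53-induced protein PUMA, averaged 13.6 ± 1.36 CPM in shARID1A and 15.5 ± 0.624 CPM in shNC, its log2 fold change being -0.19 (SE 0.08, adjusted p = 0.0430). DESeq2 did not call BBC3 (adjusted p = 0.0725), and 8 of the 12 fits that left out a library did not either. Those libraries were the first shARID1A library with DMSO, the second with E2 and the first with fulvestrant, and all shNC libraries but the second with DMSO (adjusted p between 0.0570 and 0.165). BCL2L12 and BCL2L13, more distant relatives, did not pass the test (adjusted p = 0.998 and 0.801).

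**Figure D3:**
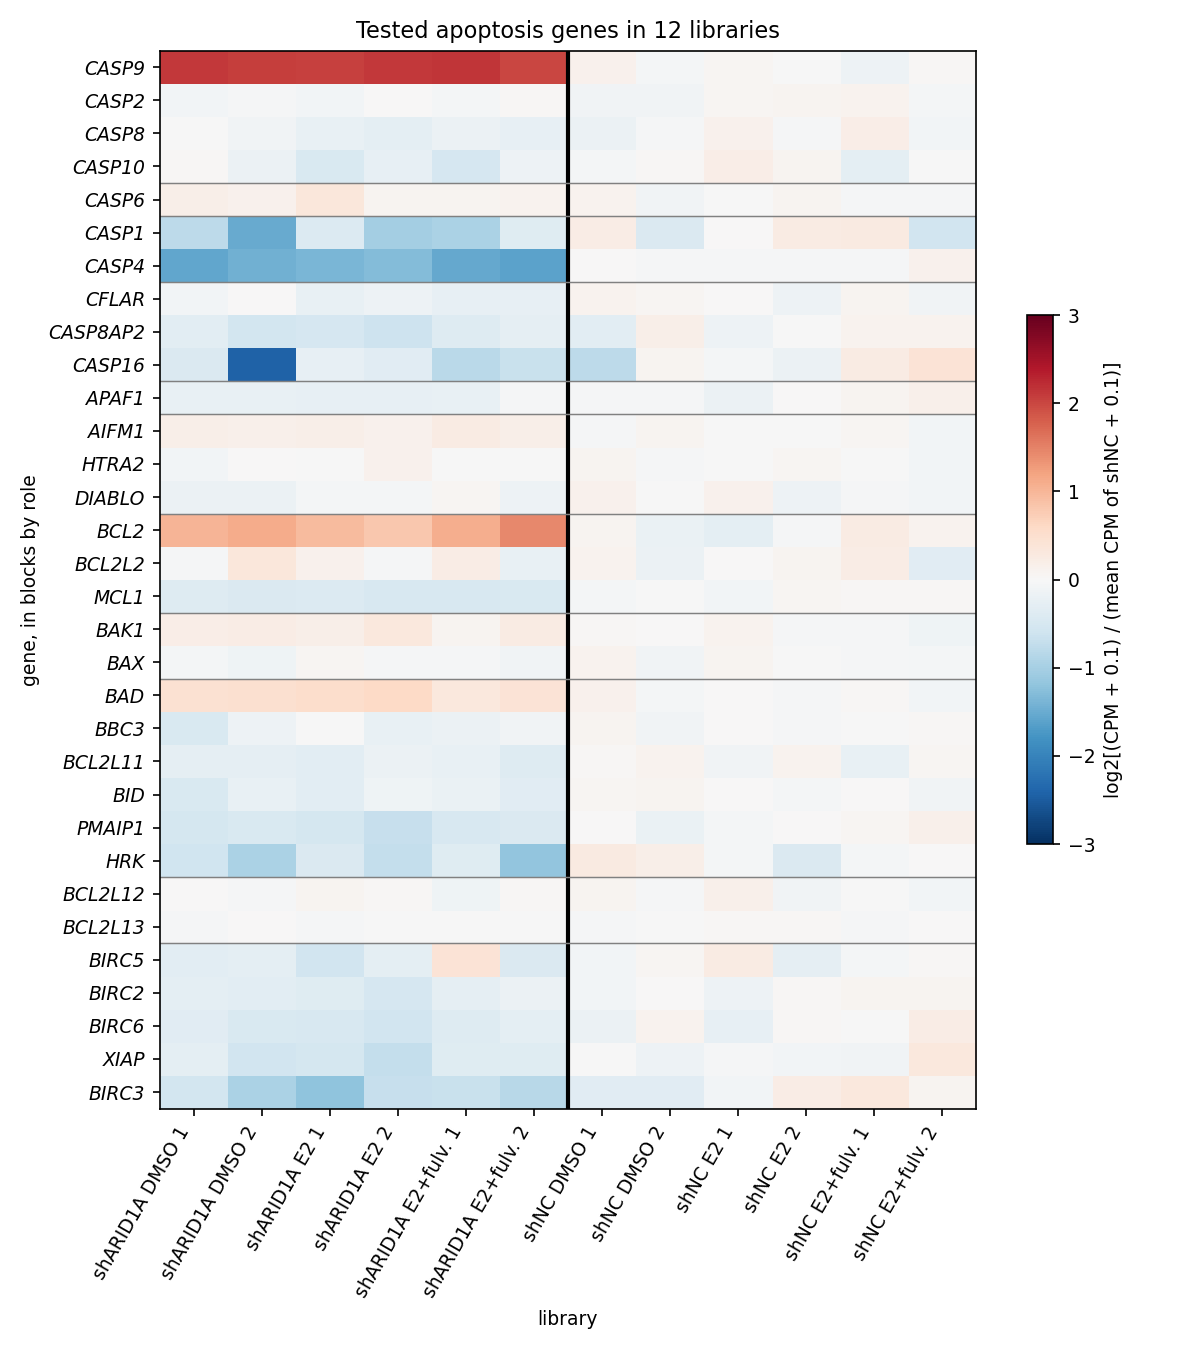
Level of 32 of the 33 tested genes (rows, in blocks by role) in the 12 libraries (columns, shARID1A left of the black line, shNC right of it), as the log2 ratio of CPM + 0.1 to the mean CPM of shNC + 0.1, red for higher and blue for lower. The rows of CASP9, BCL2 and BAD are red in all 6 shARID1A libraries and those of CASP4, MCL1, PMAIP1 and BIRC3 blue, and the columns of 1 arm look alike across treatments.

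Of the 5 tested IAP genes, 4 were called lower and none higher in shARID1A when averaged over treatments. Of all tested genes, 22.8% were called lower and 20.3% higher. Among genes averaging 10 CPM or more, 60.2% were called either way. XIAP, the IAP that binds and inhibits CASP9 and the executioners directly, had 11.9 to 15.9 CPM in shARID1A, median 14.3 CPM, and 17.6 to 24.2 CPM in shNC, median 18.8 CPM. The arms did not overlap, and XIAP fell by 0.47 on the log2 scale over the treatments (SE 0.08, adjusted p = 9.54e-06). It stood at -0.35 with DMSO, not called (adjusted p = 0.0709), at -0.57 with E2 (adjusted p = 0.00175) and at -0.48 with fulvestrant (adjusted p = 0.00692). The call with E2 was lost without the second shARID1A library (adjusted p = 0.0569), and that with fulvestrant without the first shARID1A or second shNC library (adjusted p = 0.0530 and 0.288). Without either shNC library with fulvestrant, XIAP was called with DMSO (adjusted p = 0.0493). BIRC2 and BIRC3, the ubiquitin ligases cIAP1 and cIAP2 of the TNF receptor complex, lie side by side on chromosome 11. BIRC2 had 39.5 to 49.6 CPM in shARID1A, median 45.0 CPM, and 50.1 to 59.3 CPM in shNC, median 56.6 CPM, and its log2 fold change was -0.32 (SE 0.05, adjusted p = 2.27e-06). The ranges came close without meeting.

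BIRC3 was low, at 51 to 157 counts per library. It had 2.61 and 1.95 CPM with DMSO, 1.63 and 2.38 CPM with E2, and 2.40 and 2.13 CPM with fulvestrant in shARID1A. In shNC it had 3.03 and 3.03 CPM, 3.67 and 4.55 CPM, and 4.88 and 4.13 CPM. The arms did not overlap and were nearest with DMSO. Averaged over treatments BIRC3 fell by 0.81 on the log2 scale (SE 0.15, adjusted p = 4.71e-05). BIRC3 was called in the cells given E2, at -1.02 on the log2 scale with an SE of 0.25 (adjusted p = 0.00245), and in those given fulvestrant, at -0.995 with an SE of 0.25 (adjusted p = 0.00359). With DMSO it stood at -0.41 with an SE of 0.28 and was not called (adjusted p = 0.343). The call with E2 was lost without the second shNC library (adjusted p = 0.0609) and that with fulvestrant without the first shNC library (adjusted p = 0.0527).

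BIRC6, a very large IAP with ubiquitin-conjugating activity, had 33.2 to 40.0 CPM in shARID1A, median 36.8 CPM, and 41.6 to 57.5 CPM in shNC, median 49.8 CPM. The arms did not overlap, and the log2 fold change was -0.42 (SE 0.06, adjusted p = 7.79e-07). BIRC5, survivin, had only 35 to 67 counts and did not pass the test (adjusted p = 0.362). It shares 33.8% of its exon bases with AC087645.1 on the other strand, which had 1389 to 2062 counts, so the level of BIRC5 is uncertain.

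Of the 3 tested genes for proteins released from mitochondria, 1 was called, higher, when averaged over treatments. That is beside 43.1% of all tested genes, and 60.2% of those averaging 10 CPM or more. AIFM1, a flavoprotein of the intermembrane space, had 115 to 125 CPM in shARID1A, median 119 CPM, and 100.1 to 112 CPM in shNC, median 105 CPM. The ranges did not overlap, and AIFM1 rose by 0.17 on the log2 scale over the treatments (SE 0.04, adjusted p = 0.000456). In single treatments it was called with fulvestrant only, at 0.21 on the log2 scale (adjusted p = 0.0204). That call was lost on library totals (adjusted p = 0.136) and when tested against a 1.2-fold change (adjusted p = 0.970). The log2 fold change with fulvestrant was 0.17 without the first shARID1A library and 0.15 without the second shNC library. AIFM1 was not called with DMSO or E2 (adjusted p = 0.160 and 0.0574), though DESeq2 called it with E2 (adjusted p = 0.0380). HTRA2, which cleaves IAPs, averaged 50.1 ± 2.27 CPM in shARID1A and 49.9 ± 2.26 CPM in shNC (adjusted p = 0.963). It shares 23.8% of its exon bases with LOXL3, which had at most 153 counts. DIABLO, which binds IAPs away from caspases, averaged 17.0 ± 1.12 CPM in shARID1A and 18.1 ± 1.40 CPM in shNC (adjusted p = 0.313). It shares 20.3% of its exon bases with RP11-512M8.5, at 0 counts, and 15.4% with B3GNT4, at most 75 counts. Of the caspase partners, CASP8AP2, a large nuclear protein first described as a binder of CASP8, had 17.4 to 22.1 CPM in shARID1A, median 19.7 CPM, and 21.6 to 30.5 CPM in shNC, median 27.7 CPM. Its log2 fold change was -0.44 (SE 0.07, adjusted p = 8.4e-06), with an overlap at the edges. CFLAR, the catalytically inactive relative of CASP8 that blocks it at death receptors, averaged 20.4 ± 1.47 CPM in shARID1A and 22.6 ± 1.63 CPM in shNC and missed the threshold (adjusted p = 0.0515). CASP16 had at most 19 counts and did not pass (adjusted p = 0.103).

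**Figure D4:**
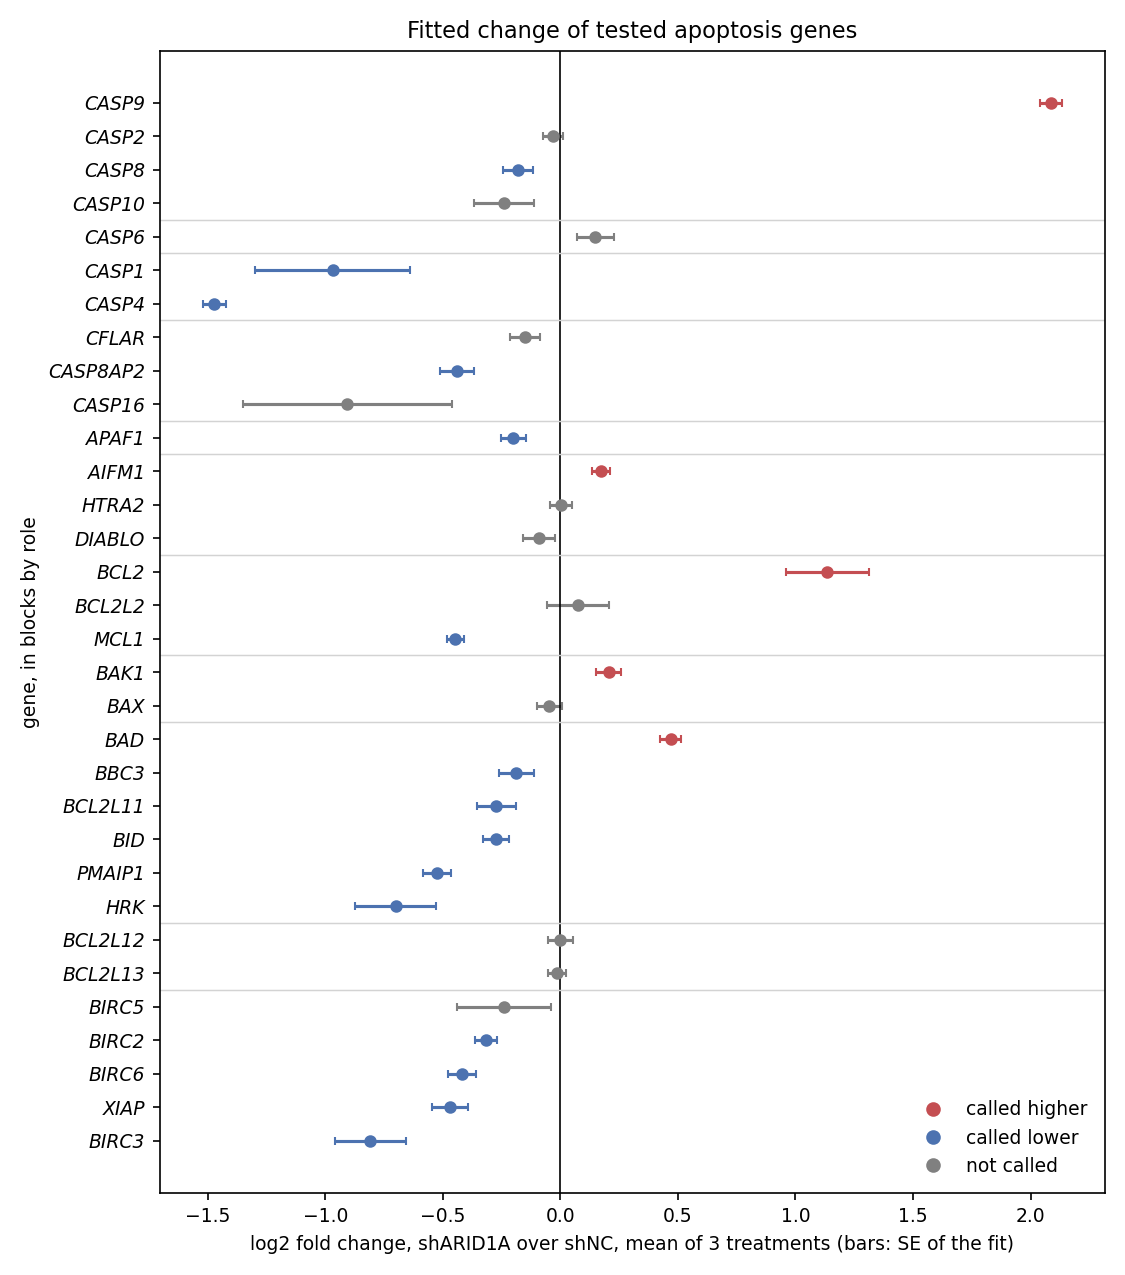
Log2 fold change of 32 of the 33 tested genes, shARID1A over shNC, averaged over the 3 treatments (horizontal axis), with bars for the SE of the fit and genes in blocks by role. CASP9 at 2.09 and BCL2 at 1.13 lead the 5 genes called higher (red), CASP4 at -1.47 leads the 15 called lower (blue), and grey marks genes not called.

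Averaged over treatments, edgeR's quasi-likelihood test called 5 of the 33 tested genes higher and 15 lower in shARID1A at an adjusted p under 0.05. That is 60.6% of them, beside 43.1% of all tested genes. Among genes averaging 10 CPM or more the share was 16 of 25, beside 60.2% of all such genes, so the number of calls was near that of other genes of like level. The median log2 fold change was -0.19 over the 33 genes and -0.02 over all tested genes. The levels of 12 of the 33 did not overlap between the 6 shARID1A and 6 shNC libraries, 4 higher and 8 lower in shARID1A, beside 22.0% of all tested genes, 11.4% higher and 10.6% lower. At 10 CPM or more the count was 10 of 25, with 3 higher and 7 lower, beside 33.7%, 19.4% higher and 14.3% lower.

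Within single treatments the counts were smaller. With DMSO 3 genes were called higher and 8 lower, 33.3% of the 33, beside 19.2% of all genes (9.70% higher, 9.50% lower). With E2 3 were higher and 9 lower, 36.4%, beside 27.2% (13.4% higher, 13.8% lower). With fulvestrant 4 were higher and 9 lower, 39.4%, beside 24.2% (11.4% higher, 12.8% lower). Among genes at 10 CPM or more, 9, 10 and 11 of 25 were called in these treatments, beside 28.8%, 41.1% and 36.6% of all such genes. Leaving out 1 library moved the count of genes called lower with DMSO to 4 without the second shARID1A library and to 5 without the first shARID1A or the second shNC library. With fulvestrant it moved to 5 without the first shNC library.

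CASP9, BCL2 and BAD were called higher in all 3 treatments, and CASP4, MCL1, PMAIP1, BIRC2, BIRC6 and CASP8AP2 lower. Over all tested genes, 13.3% were called in the same direction in all 3. CASP9, CASP4, MCL1 and BAD kept each of these calls whichever library was left out. BCL2 lost its call with DMSO without the second shARID1A or second shNC library (adjusted p = 0.0561 and 0.0806), with E2 without the first shNC library (adjusted p = 0.0723), and with fulvestrant without the second shARID1A library (adjusted p = 0.0579). PMAIP1 lost it with DMSO without the first shARID1A or first shNC library (adjusted p = 0.0564 and 0.112). BIRC2 lost it with DMSO without either shARID1A library or the second shNC library (adjusted p between 0.0845 and 0.161), and with fulvestrant without the first shARID1A or first shNC library (adjusted p = 0.104 and 0.0592). BIRC6 lost it with DMSO without the second shARID1A or second shNC library (adjusted p = 0.141 and 0.279), and with E2 or fulvestrant without the second shNC library (adjusted p = 0.0767 and 0.0600). CASP8AP2 lost it with DMSO without the second shARID1A or second shNC library (adjusted p = 0.291 and 0.625), with E2 without the second shARID1A library (adjusted p = 0.0596), and with fulvestrant without the first shARID1A or either shNC library (adjusted p between 0.0519 and 0.0974).

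Neither E2 nor fulvestrant gave a called change in any of the 33 genes. Against DMSO, E2 called 0 of them in shARID1A and 0 in shNC, by edgeR and by DESeq2, beside 0.0235% and 0.00588% of all genes by edgeR. At an unadjusted p under 0.05 there were 0 in shARID1A and 1 in shNC by either tool. Fulvestrant with E2, against E2 alone, likewise called 0 in each arm by both tools, beside 0.00588% of all genes in either arm. At an unadjusted p under 0.05 edgeR gave 3 in shARID1A and 2 in shNC, and DESeq2 3 and 1. Set against each other, the arms also gave 0 called differences in the response to E2 and 0 in the response to fulvestrant by both tools, beside 0.0294% and 0.0118% of all genes, with 1 gene each at an unadjusted p under 0.05 by either tool. The estrogen receptor gene was low throughout, and few genes of any kind were called in these comparisons.

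For CASP9, the log2 fold change with E2 against DMSO was -0.01 in shARID1A (SE 0.07) and -0.01 in shNC (SE 0.10). With fulvestrant against E2 it was -0.01 in shARID1A (SE 0.07) and -0.08 in shNC (SE 0.10). The arms differed by 0.01 in the E2 effect (SE 0.12) and 0.07 in the fulvestrant effect (SE 0.12). CASP4 had the smallest unadjusted p in the second of these, with -0.33 (SE 0.12, adjusted p = 0.9998), and -0.24 for fulvestrant within shARID1A (SE 0.10, adjusted p = 0.452). BAD stood at -0.19 (SE 0.07, adjusted p = 0.437) and BIRC2 at 0.22 (SE 0.09, adjusted p = 0.446) for fulvestrant in shARID1A. In shNC, BIRC6 and APAF1 stood at 0.20 and 0.20 for fulvestrant (adjusted p = 0.634 and 0.608) and CASP2 at 0.17 for E2 (adjusted p = 0.9997). CASP8 stood at -0.34 in the difference of the E2 effect (SE 0.15, adjusted p = 0.767).

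The genes around CASP9 did not all follow it. Of 20 genes in the files within 250 kb on either side, 10 were tested and 3 were called higher in shARID1A, none lower. Of all tested genes, 20.3% were called higher and 22.8% lower. EFHD2, which encodes a calcium-binding protein of the actin cytoskeleton, averaged 159.7 ± 10.7 CPM in shARID1A and 94.4 ± 6.01 CPM in shNC and rose by 0.76 on the log2 scale (SE 0.04, adjusted p = 1.91e-16). PLEKHM2, a lysosome-positioning adaptor, averaged 153 ± 5.89 CPM in shARID1A and 131 ± 6.03 CPM in shNC and rose by 0.22 (SE 0.04, adjusted p = 1.36e-05). CELA2B, called as well (adjusted p = 0.0286), had at most 11 counts. DNAJC16, a heat shock cochaperone gene that starts 279 bases away on the other strand, averaged 21.9 ± 1.41 CPM in shARID1A and 21.0 ± 1.37 CPM in shNC, its log2 fold change being 0.06 (SE 0.06, adjusted p = 0.473). DDI2, a protease gene farther along, stood at -0.15 (SE 0.07, adjusted p = 0.0978).

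**Figure D5:**
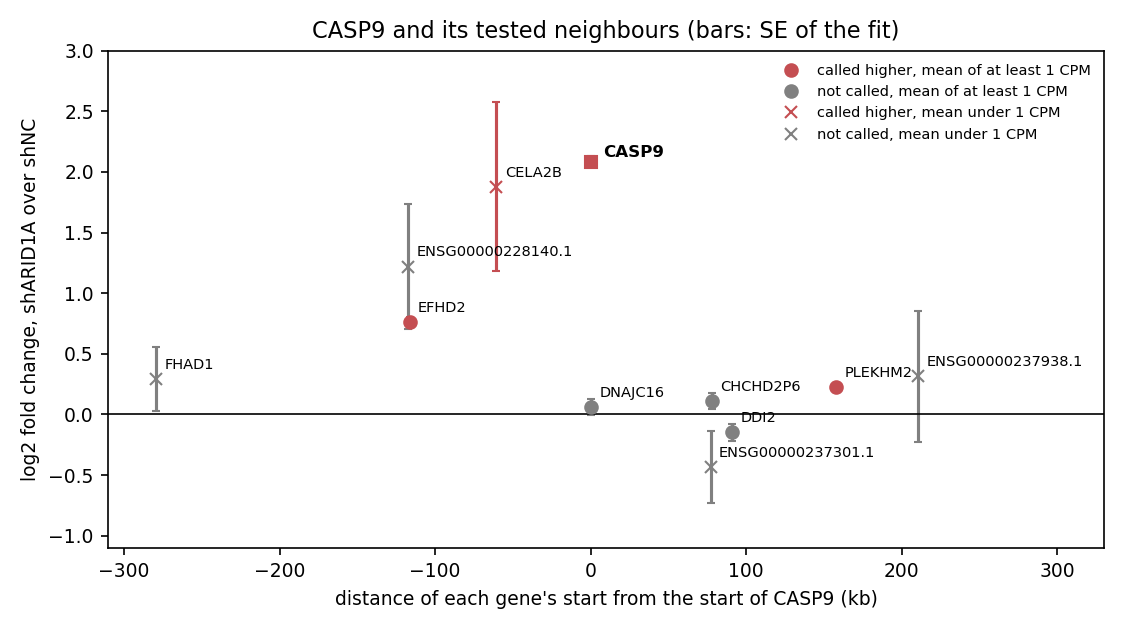
Log2 fold change, shARID1A over shNC averaged over treatments (vertical axis, bars for the SE of the fit), of CASP9 (square) and its 10 tested neighbours against the distance of each gene's start from the start of CASP9 in kb (horizontal axis). Red marks genes called higher, grey genes not called, and crosses genes with a mean under 1 CPM. DNAJC16, the nearest start, is at 0.06 and EFHD2 at 0.76, both below CASP9 at 2.09.

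Beyond the 41 genes, 5 lists of cell death and proliferation genes were read in the same averaged comparison. The counts of all 5 lists are to be read beside the shares of all tested genes. These were 43.1% called, 20.3% higher and 22.8% lower, and 60.2% called among genes averaging 10 CPM or more. Of 12 tested death receptor and adaptor genes, 4 were called higher and 6 lower. TRAF2, the adaptor that recruits BIRC2 and BIRC3 to the TNF receptor, averaged 271 ± 7.86 CPM in shARID1A and 183 ± 8.48 CPM in shNC and rose by 0.57 on the log2 scale (SE 0.03, adjusted p = 1.1e-14). MLKL, the executioner of necroptosis, fell by 0.56 (SE 0.06, adjusted p = 1.1e-09), with 22.1 ± 1.31 CPM in shARID1A and 32.6 ± 1.96 CPM in shNC. The death receptor genes TNFRSF10B and FAS fell by 0.25 (SE 0.03, adjusted p = 1.15e-07) and 0.65 (SE 0.09, adjusted p = 9.07e-07).

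Of 15 tested caspase substrates and effectors, 6 were called higher and 3 lower. The 4 with the smallest p were all higher in shARID1A, with LMNA, a nuclear lamin, at 0.31 (SE 0.03), SPTAN1, a spectrin, at 0.22 (SE 0.03), DFNA5, a gasdermin cut by caspases, at 0.27 (SE 0.04) and PANX1, a membrane channel opened by caspases, at 0.26 (SE 0.05). Of 20 tested mitochondrial cofactors, 7 were called higher and 7 lower. BAG1, a BCL2-binding cochaperone, averaged 304 ± 10.9 CPM in shARID1A and 217 ± 4.81 CPM in shNC and rose by 0.48 (SE 0.03, adjusted p = 1.01e-13). BNIP2, OPA1, which shapes mitochondrial cristae, and BCLAF1 fell by 0.34 (SE 0.05), 0.37 (SE 0.06) and 0.32 (SE 0.05).

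Of 8 tested inflammasome and caspase platform genes, 3 were called higher and none lower, although CASP4 and CASP1 themselves were lower. NOD1, a sensor of bacterial cell wall, stood at 0.19 (SE 0.06, adjusted p = 0.00684), PIDD, the platform of CASP2, at 0.24 (SE 0.07, adjusted p = 0.00754) and NLRP1, an inflammasome sensor, at 0.20 (SE 0.06, adjusted p = 0.00775). All 12 tested proliferation genes were lower, with CCNB2 at -0.31 (SE 0.03), MKI67 at -0.44 (SE 0.05), AURKA at -0.33 (SE 0.04) and TOP2A at -0.38 (SE 0.05).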

How the data were processed

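The authors deposited raw counts per gene, 1 file for each library, and had not normalized them. The submitters' processing notes name FastQC, Trim Galore, cutadapt, Subread 2.0.0 and the hg19 build, and featureCounts 2.0.0 counted reads over exons, per the file headers. No strand setting appears there, so overlapping genes on opposite strands cannot be told apart.

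From these counts, filterByExpr by group kept 17020 of 45320 genes. All 12 libraries were fitted together in edgeR 4.0.16 (R 4.3.3) with TMM factors, 1 mean per group, glmQLFit (legacy = FALSE) and glmQLFTest. Within each of 10 contrasts, p-values were adjusted over all tested genes by Benjamini-Hochberg, and a gene is called below 0.05. DESeq2 1.42.0 was an alternative. The fit was also run on simulated counts with far fewer changed genes than were called here, and no result above rests on it. CPM uses TMM-scaled totals, and RPKM divides CPM by the summed exon length in the files. A floor of 3 counts was 0.0776 to 0.104 CPM, for counting error only. Promoter sequences are RefSeq's for GRCh38.p14, whose coordinates differ from hg19.

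By rule, every library's value is given for CASP9 and for genes called in the averaged contrast with a log2 fold change of at least 0.5 and 1 CPM, and up to 10 more genes by smallest p and up to 4 of each list are named. MCL1 and BAD, among those 10, are also given by library. The genes, lists and rules were chosen with earlier results of these data known. The related-gene lists came from general knowledge, and symbols that did not match are not analysed here. The values of 1 tested gene are not reported here, though it remains in the counts and sums.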

Additional observations from a re-analysis of the deposited data

How the results depend on the processing

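All 12 libraries were left out in turn, and normalization, filter, tool, block and a test against a 1.2-fold change were varied. CASP9 and CASP4 kept their calls and directions in the averaged and single-treatment comparisons under every alternative. Counts of called apoptosis genes stayed within 1.5 times under other normalizations, no filter, DESeq2, the replicate block and a fit to the 4 libraries of 1 treatment. Tested against 1.2-fold, the genes called lower numbered 1 with DMSO, 5 with E2, 4 with fulvestrant and 8 on average. Those called higher numbered 2 with fulvestrant and 3 on average. The averaged calls of BIRC2, BID, AIFM1, BAK1, APAF1, BCL2L11, CASP8, CASP1 and BBC3 were lost in this test. MCL1 lost its call with DMSO (adjusted p = 0.109), and BAD its calls with DMSO and fulvestrant (adjusted p = 0.0738 and 0.118). Leaving out 1 library gave 2 to 3 higher and 4 to 9 lower with DMSO, 2 to 4 higher and 6 to 9 lower with E2, 3 to 4 higher and 5 to 9 lower with fulvestrant, and 5 higher and 12 to 15 lower on average. The difference of CASP9 between the arms was 105.8 to 108.5 CPM without 1 library and 102.6 CPM on unscaled totals, against 107.0 CPM. The log2 fold change of CASP8 with DMSO, 0.04 and not called, was -0.024 on library totals and ran from -0.021 without the first shNC DMSO library to 0.098 without the second. The causes of these shifts were not tested. Of the 13 genes not called on average, 4 were called (CASP2, CASP10, CASP16 and CFLAR) and 5 changed sign under at least 1 alternative.

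The replicate numbers were not shown to pair the libraries, since the 15 correlations of their deviations between groups ran from -0.223 to 0.276. They were 0.119 to 0.276 in the 6 pairs among the shNC groups and shARID1A with fulvestrant, and -0.223 to -0.107 between shARID1A with E2 and these 4 groups, a hint from the data and not the design. With the replicate block, 3373, 4734, 4193 and 7398 of all genes were called with DMSO, with E2, with fulvestrant and on average, against 3268, 4633, 4120 and 7339 without it. In a crossed pairing chosen after seeing the data, with the numbers of the shARID1A E2 libraries exchanged, 5115 genes were called with E2 and 16 for fulvestrant in shARID1A. Over all genes, the counts for the 4 treatment effects and 2 differences, 4, 1, 1, 1, 5 and 2, came to 6, 1, 18, 2, 16 and 1 with DESeq2 and 37, 12, 41, 19, 41 and 9 with no filter. No apoptosis gene was called in these comparisons under any alternative. Tested against 1.2-fold, 1045, 1524, 1332 and 2362 genes were called with DMSO, with E2, with fulvestrant and on average. Few counts limit the values of some genes, BCL2, BIRC3, HRK, CASP1, CASP16 and BIRC5 among them. BCL2 was counted over only 572 exon bases, and BIRC5 shares 33.8% of its exon bases with AC087645.1.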

Other observations

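Of the 41 apoptosis genes, 6 lie in a single stretch of chromosome 11 (chr11:102188215-104972158, hg19), from BIRC3 and BIRC2 to CASP12, CASP4, CASP5 and CASP1. The stretch was singled out after its values were seen. The 4 of them that were tested, BIRC3, BIRC2, CASP4 and CASP1, were all called lower in shARID1A when averaged over treatments. Of all tested genes, 22.8% were called lower in that comparison. Tested against a 1.2-fold change, the calls of BIRC2 and CASP1 were lost (adjusted p = 0.223 and 0.0740). Of the 43 genes there, 9 were tested. Of the other 5 tested genes, 2 were called lower, TMEM123 at -0.28 (SE 0.04) and DYNC2H1 at -0.41 (SE 0.14), and none higher, while DCUN1D5 between them stood at 0.05 (SE 0.04, adjusted p = 0.339).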
